A study of Mus musculus with 48 samples.

Results

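The genes described here encode the subunits of the proteasome, the large protease that degrades ubiquitin-tagged proteins. They were taken by name, as all rows of the expression table whose symbol is Psma, Psmb, Psmc or Psmd followed by a number and whose mean over the 48 samples was at least 1 on the log2 scale. The rule found 38 of the 13409 genes that carried a symbol and reached that mean, out of 27281 genes in the table. They comprise 7 alpha subunits of the core (Psma1 to Psma7) and 8 beta subunits outside the immunoproteasome (Psmb1 to Psmb7 and the thymic Psmb11). A further 3 are the immunoproteasome beta subunits (Psmb8, Psmb9 and Psmb10). The regulatory particle adds 6 ATPases (Psmc1 to Psmc6), 11 non-ATPase subunits and 3 of its assembly chaperones (Psmd5, Psmd9 and Psmd10). Every gene that the rule found was tested. The 34 genes other than Psmb8, Psmb9, Psmb10 and Psmb11 are called the constitutive genes below.

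RNA-Seq was performed on polyadenylated RNA from conditionally immortalized murine striatal progenitor cells of strain C57BL/6, with 3 samples in each of 16 conditions. STHdhQ111 cells carry a homozygous knock-in of mutant huntingtin, STHdhQ7 cells are the wild-type counterpart, and each genotype is represented by a single cell line, so that genotype and line cannot be told apart. Cells of both lines were kept in serum-free medium for 24 h, with vehicle (DMSO) in the STHdhQ7 control and in the STHdhQ111 control. STHdhQ111 cells were given instead 1 of 14 compounds chosen as protective in this assay. Diacylglycerol kinase inhibitor II (DKI), loxapine, meclizine, selisistat and cyproheptadine were given at 10 µM, and pizotifen at 5 µM. Cysteamine was given at 250 µM, sodium butyrate at 1 mM, 4-deoxypyridoxine (DOP) at 4 mM and fingolimod phosphate at 250 nM. Trichostatin A was given at 10 nM, nortriptyline at 1 nM, and nicotinamide and haloperidol at 0.5 nM. Following the study's naming, cyproheptadine, loxapine and pizotifen are Group A, and DKI and meclizine are Group B. The 3 samples of a condition differed in collection day or time, but the labels do not say whether they were separate cultures. The p-values therefore measure the spread between samples collected apart, which may be in part technical.

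The proteasome consists of a barrel-shaped core with its proteolytic sites inside and a regulatory particle that caps the barrel. The core is built from alpha rings, which gate the entry, and beta rings, in which Psmb5, Psmb6 and Psmb7 carry the active sites. The regulatory particle recognises polyubiquitin, removes it and unfolds the substrate with a ring of ATPases before it enters the core. Interferons induce Psmb8, Psmb9 and Psmb10, which replace Psmb5, Psmb6 and Psmb7 respectively and alter the peptides made for class I antigen presentation. The constitutive genes are known to be induced together by the transcription factor Nfe2l1 when proteasome capacity falls short. Degradation of misfolded protein is of interest in Huntington's disease, in which mutant huntingtin accumulates in striatal neurons.

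The samples were similar in scale. The totals of the unlogged values differed at most 1.11-fold, and Pearson's r between samples of a condition was 0.996 to 0.999 across genes. Sequencing depth cannot be read from log values and remains unknown. The progenitor label was only partly borne out by its markers: Vim lay between 14.79 and 15.70 in the STHdhQ111 samples, but Sox2 reached at most 5.92 and Pax6 at most 3.92 there, against 8.41 or more and 5.32 or more in STHdhQ7. The striatal neuron marker Drd1 stayed below 0 in all samples. Of the 6 leukocyte and microglia markers, Ptprc was high in both lines (9.83 to 10.92 in STHdhQ111 and 7.36 to 8.33 in STHdhQ7), Cd68 was at 5.88 to 6.91, and Aif1 and Cx3cr1 were below 0 throughout. Replicate 2 of selisistat stood apart from its group, as described with the values below.

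The promoters of 4 members are shown as examples with and without a binding motif of the factor that is known to induce these genes. RefSeq promoters (GRCm38.p6, 250 bases before to 50 bases after the transcript start) were found for 32 of the 38 genes. The core of the antioxidant response element, TGACNNNGC, which Nfe2l1 and Nfe2l2 bind, was searched on both strands. It occurred in 12.4% of the 32851 RefSeq promoters and in 5 of the 32, which were Psmb5, Psmb6, Psmd9, Psmd12 and Psmc6. Of the genes called higher with cyproheptadine, 22 had a promoter and 2 held these letters, Psmd12 and Psmc6. Psmb5, Psmb6 and Psmd9 hold the letters and were not called with cyproheptadine. Psma4, Psma6 and Psmd10 were not called either and do not hold them. Whether the letters bear on the calls was not tested. The core of the interferon-stimulated response element was found in 3.44% of all promoters and in Psmb3, Psmd4 and Psmd9. The gamma-activated site core, TTCNNNGAA, was found in 8.3% of all promoters and in Psmb8 and Psmd2. In Psmb8 it lay at -97 to -89 from the start, while the promoters of Psmb9 and Psmb10 held none of the 3 motifs. The sequences below run 5′ to 3′ on the strand of the gene and end at the base before the transcript start, with the antioxidant response element core in capitals. It lies at -47 to -39 in Psmb5 and at -9 to -1 in Psmb6, and it is not among the letters of the windows of Psmd8 and Psmc4.
Psmb5, chr14:54617996-54618245, minus strand: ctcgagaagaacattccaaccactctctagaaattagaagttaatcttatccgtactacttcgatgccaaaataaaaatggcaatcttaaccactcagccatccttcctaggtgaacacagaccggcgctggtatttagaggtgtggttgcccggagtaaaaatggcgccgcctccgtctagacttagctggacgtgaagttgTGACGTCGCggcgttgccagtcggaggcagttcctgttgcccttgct
Psmb6, chr11:70525107-70525356, plus strand: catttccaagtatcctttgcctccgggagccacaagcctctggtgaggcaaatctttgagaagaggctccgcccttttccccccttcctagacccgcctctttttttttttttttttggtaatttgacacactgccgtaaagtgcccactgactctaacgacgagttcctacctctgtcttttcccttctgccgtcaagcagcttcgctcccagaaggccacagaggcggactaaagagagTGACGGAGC
Psmd8, chr7:29180674-29180923, minus strand: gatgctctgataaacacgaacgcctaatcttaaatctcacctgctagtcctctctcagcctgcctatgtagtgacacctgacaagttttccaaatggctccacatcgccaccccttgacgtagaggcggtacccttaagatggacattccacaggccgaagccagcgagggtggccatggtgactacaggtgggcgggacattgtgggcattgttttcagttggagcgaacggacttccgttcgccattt
Psmc4, chr7:28050093-28050342, minus strand: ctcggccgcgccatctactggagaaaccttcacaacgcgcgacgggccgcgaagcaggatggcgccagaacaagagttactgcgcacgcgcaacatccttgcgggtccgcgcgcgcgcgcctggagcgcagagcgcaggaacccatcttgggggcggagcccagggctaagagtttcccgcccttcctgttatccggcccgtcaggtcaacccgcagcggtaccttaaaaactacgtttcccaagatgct

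Across the 14 compounds, changes of the proteasome genes fell into 2 patterns. Many constitutive genes were called higher (defined below) with the Group A compounds. The immunoproteasome genes showed larger changes, and they were lower with some compounds and higher with others. Their called rises were those with DOP, nicotinamide and sodium butyrate, which did not share their day and time slots of collection with the vehicle. Against low-dose compounds of the same slots, the rises with DOP and sodium butyrate were not called. The part of the slot was not tested. Small positive differences of most constitutive genes were not particular to Group A. Of the 34, 33 were positive with cysteamine (median 0.11) and 31 with fingolimod phosphate (median 0.065), against 34 with loxapine (median 0.13). All compound comparisons below share the same 3 STHdhQ111 vehicle samples, so that a high or low vehicle value enters each of them. In bulk RNA, fewer cells of a kind and less RNA per cell cannot be told apart. The median log2 difference over all genes tested was between -0.0058 and 0.016 in every comparison. A gene is called when its adjusted p was under 0.05 with limma and Benjamini-Hochberg adjustment over all 13409 genes tested.

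**Figure D1:**
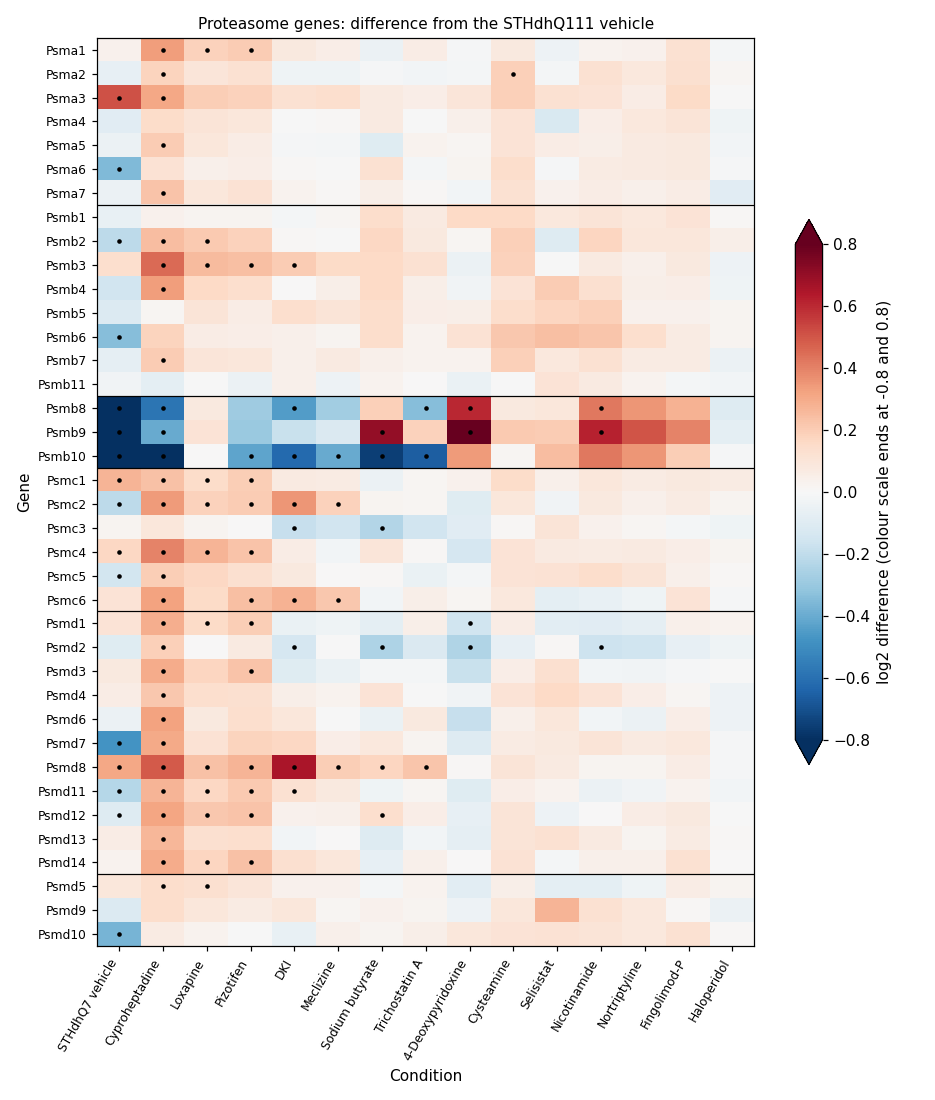
Log2 difference from the STHdhQ111 vehicle (colour) for the 38 proteasome genes (rows, grouped as alpha, beta, immunoproteasome, ATPase, non-ATPase and chaperone genes) in 15 conditions (columns), with a dot where the adjusted p was under 0.05. The cyproheptadine column is red in all constitutive rows with 26 dots, and the rows of Psmb8, Psmb9 and Psmb10 hold the deepest colours, blue for STHdhQ7 and cyproheptadine and red for DOP.

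Cyproheptadine, an antihistamine and serotonin antagonist, raised most of the constitutive genes by small amounts. It raised 26 of the 34 and lowered none, while all 34 differences were positive, with a median of 0.24 on the log2 scale. Over all genes tested, 17.5% were called higher with this compound, 18.2% lower and 35.6% in either direction. By class, 5 of 7 alpha genes, 4 of 8 beta genes, 5 of 6 ATPase genes, all 11 non-ATPase genes and 1 of 3 chaperone genes rose. The 8 beta genes include Psmb11, which is not among the 34 and was not called. The rises called ranged from 0.14 to 0.49 in log2.

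Psmd8, a lid subunit of the regulatory particle (chr7:29174188-29180701 on the minus strand of GRCm38), had the largest rise of these genes. Its log2 abundance was 10.97, 10.80 and 10.87 with cyproheptadine and 10.29, 10.36 and 10.51 with vehicle. Every treated sample lay above every vehicle sample. The difference was 0.49 (SE 0.069, limma adjusted p = 6.4e-07), a 1.41-fold change. Psmb3, a structural beta subunit, was at 11.18, 10.90 and 11.12 against 10.43, 10.59 and 10.81 with vehicle. Its groups did not overlap either, but the third vehicle sample came close to the lowest treated sample, and the difference was 0.46 (SE 0.084, limma adjusted p = 4.2e-05). Psmc4, an ATPase of the base (chr7:28041707-28050101, minus strand), was at 10.47, 10.18 and 10.36 against 9.93, 9.91 and 9.99. Its second treated sample was the lowest and still lay above all vehicle samples, and the difference was 0.39 (SE 0.068, limma adjusted p = 1.5e-05). Psmc2, another ATPase (chr5:21785283-21803787, plus strand), was at 11.33, 11.23 and 11.30 against 10.94, 10.94 and 10.96, an increase of 0.34 (SE 0.051, limma adjusted p = 2.3e-06) with little spread in either group.

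The constitutive genes not called with cyproheptadine were Psma4, Psma6, Psmb1, Psmb5, Psmb6, Psmc3, Psmd9 and Psmd10, with differences from 0.01 to 0.18. They include 2 of the 3 standard catalytic subunits. Psmb5, the chymotrypsin-like subunit, was at 9.57, 9.43 and 9.62 with cyproheptadine and at 9.53, 9.41 and 9.63 with vehicle. The groups overlapped throughout, and the difference was 0.01 (95% interval -0.19 to 0.22). Psmb6, the caspase-like subunit, differed by 0.18 (95% interval 0.019 to 0.34, limma adjusted p = 0.071). Psmb7, the trypsin-like subunit, rose by 0.20 (SE 0.071, limma adjusted p = 0.023). That call was lost without replicate 1 of cyproheptadine, when the difference was 0.13, and without replicate 1 or replicate 2 of the vehicle, when it was 0.18 and 0.19.

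**Figure D2:**
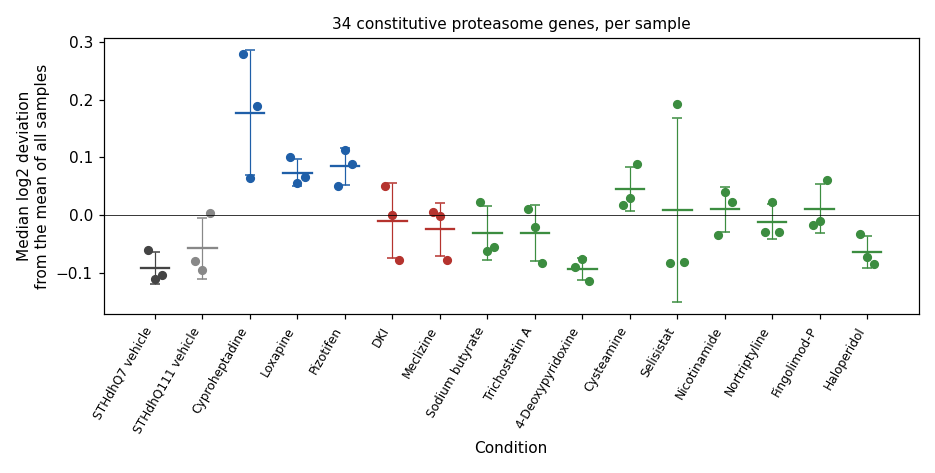
Median log2 deviation of the 34 constitutive genes from their mean over all samples (vertical axis) for each of the 48 samples (points) in 16 conditions, with the mean and SD of 3 samples. The cyproheptadine samples lie between 0.065 and 0.280, above the vehicle samples at -0.095 to 0.004, and replicate 2 of selisistat lies at 0.192 while its other replicates are below 0.

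Within the cyproheptadine group the size of the rise varied between samples. The median deviation of the constitutive genes from their mean over all samples was 0.280 in replicate 1, 0.065 in replicate 2 and 0.189 in replicate 3. The vehicle samples were at -0.080, -0.095 and 0.004, so that the lowest treated sample lay above the highest vehicle sample. Replicate 1 of cyproheptadine was collected on day 3, as was replicate 3, whereas the vehicle samples came from days 1, 2 and 3. Without replicate 1 of cyproheptadine, 21 of the 38 proteasome genes were called, against 29 with it. In selisistat, replicate 2 had a median deviation of 0.192 and the other replicates -0.084 and -0.082, so that a single sample of that group was as high as the cyproheptadine samples.

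Loxapine and pizotifen, the other Group A compounds, raised fewer constitutive genes, by smaller amounts. Loxapine, an antipsychotic, raised 12 of the 34 and lowered none, with a median difference of 0.13 and all 34 differences positive. Of all genes tested, 10.1% were called higher with loxapine, 11.8% lower and 21.9% in either direction. Pizotifen, a serotonin antagonist, also raised 12 and lowered none of the 34, with a median of 0.13 and 33 positive differences. The background with pizotifen was 8.86% called higher, 9.07% lower and 17.9% in either direction. Loxapine and cyproheptadine were given at 10 µM and pizotifen at 5 µM.

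With loxapine the largest rises were those of Psmc4, Psmb3, Psmd8 and Psmd12, a lid subunit. Psmc4 was at 10.20, 10.21 and 10.22 with loxapine, all above the vehicle samples, a difference of 0.27 (SE 0.067, limma adjusted p = 0.0032). Psmd12 was at 10.49, 10.46 and 10.51 against 10.31, 10.24 and 10.27, a difference of 0.21 (SE 0.045, limma adjusted p = 7.1e-04). The loxapine samples of both genes lay close together and apart from the vehicle samples. Psmb3 rose by 0.25 and Psmd8 by 0.24. The other genes called with loxapine were Psma1, Psmb2, Psmc1, Psmc2, Psmd1, Psmd5, Psmd11 and Psmd14.

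With pizotifen the largest rises were those of Psmd8 (0.27), Psmb3 (0.24), the ATPase Psmc6 (0.24) and Psmd14 (0.24), the deubiquitinase of the lid. Psmd14 was at 10.29, 10.36 and 10.33 against 10.12, 10.07 and 10.09 with vehicle. The groups were well separated (SE 0.054, limma adjusted p = 0.0018). For Psmb3 the lowest pizotifen sample, at 10.75, fell below the highest vehicle sample, at 10.81. The other genes called were Psma1, Psmc1, Psmc2, Psmc4, Psmd1, Psmd3, Psmd11 and Psmd12.

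The counts for these compounds depended on single samples. Without replicate 1 of the vehicle, 6 proteasome genes were called with loxapine and 7 with pizotifen, and without replicate 2 of the vehicle the counts were 6 and 8. Leaving out any single loxapine sample gave 7 with loxapine. Psmd8 was not called with either compound without replicate 1 of the vehicle (0.19 and 0.22). Psmb3 was not called with either without replicate 1 or 2 of the vehicle or replicate 3 or 2 of the compound, when its differences lay between 0.15 and 0.25. Loxapine and pizotifen were collected in other day and time slots than the vehicle. Against low-dose compounds collected in the same slots, 13 constitutive genes were called higher with loxapine (reference nicotinamide and nortriptyline), where 11.9% of all genes tested were called higher, and 12 with pizotifen (reference haloperidol), where 7.59% were. With loxapine the median of the 34 then fell to 0.073, with 26 positive and 8 negative differences, and Psmb2 (0.075) and Psmc1 (0.071) were no longer called. With pizotifen the median was 0.15, with 33 positive differences, and Psmc1 (0.13) was no longer called.

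DKI and meclizine, the Group B compounds, changed fewer of these genes. With DKI, a lipid kinase inhibitor, 9 of the 38 genes were called, 5 higher and 4 lower, where 42.3% of all genes tested were called, 20.4% higher and 21.9% lower. With meclizine, an antihistamine, 4 were called, 3 higher and 1 lower, where 26.8% of all genes were called, 13.1% higher and 13.6% lower. Both shares are below the background of their comparison. The median difference of the constitutive genes was 0.04 with DKI and 0.02 with meclizine.

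Psmd8 had its highest level of all conditions with DKI, at 11.23, 10.95 and 10.94. All DKI samples lay above all vehicle samples, and the difference of 0.65 (SE 0.069, limma adjusted p = 8.1e-10) was the largest of any constitutive gene in any comparison. With meclizine Psmd8 was at 10.65, 10.60 and 10.51, with its lowest sample at the level of the highest vehicle sample, a difference of 0.20 (SE 0.068, limma adjusted p = 0.027). Psmc2 rose by 0.36 with DKI (SE 0.051, limma adjusted p = 4.4e-07) and by 0.19 with meclizine (SE 0.051, limma adjusted p = 0.0051). Its DKI samples were at 11.42, 11.30 and 11.19 and its meclizine samples at 11.20, 11.15 and 11.04, all above the vehicle samples. Psmc6 rose by 0.28 with DKI and by 0.22 with meclizine. Psmb3 and the lid subunit Psmd11 rose by 0.21 and 0.12 with DKI. The base subunits Psmc3, an ATPase, and Psmd2, a scaffold, fell by 0.18 and 0.14 with DKI. The calls of Psmb3, Psmc3 and Psmd2 with DKI were lost when only the DKI and vehicle samples entered the fit (0.10, -0.20 and -0.10), and each was lost without 4 single samples, among them vehicle replicate 1 and DKI replicate 2 for all 3 (0.12 and 0.20 for Psmb3, -0.19 and -0.19 for Psmc3, -0.10 and -0.14 for Psmd2). With meclizine, Psmd8 was not called without replicate 1 or 2 of the vehicle or of meclizine (0.15 to 0.20), and Psmc2 was not called without meclizine replicate 1 (0.15). Without vehicle replicate 1 or meclizine replicate 2, 2 genes were called with meclizine. The remaining calls concern the immunoproteasome genes.

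Psmd8 was called higher with 7 of the 14 compounds, more than any other proteasome gene. These were DKI, cyproheptadine, pizotifen, loxapine, trichostatin A (0.22), meclizine and sodium butyrate (0.17). With trichostatin A its samples were 10.68, 10.69 and 10.45, the last of which lay below the highest vehicle sample. With sodium butyrate its samples were 10.55, 10.56 and 10.56, above all vehicle samples. The sodium butyrate call was lost when any sample of the comparison other than vehicle replicate 3 was left out (0.12 to 0.17), and that with trichostatin A without replicate 1 or 2 of the vehicle or of trichostatin A (0.17 to 0.20). In the STHdhQ7 vehicle Psmd8 was at 10.77, 10.66 and 10.66, which is 0.31 above STHdhQ111. With the other 7 compounds its difference lay between -0.01 and 0.10.

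**Figure D3:**
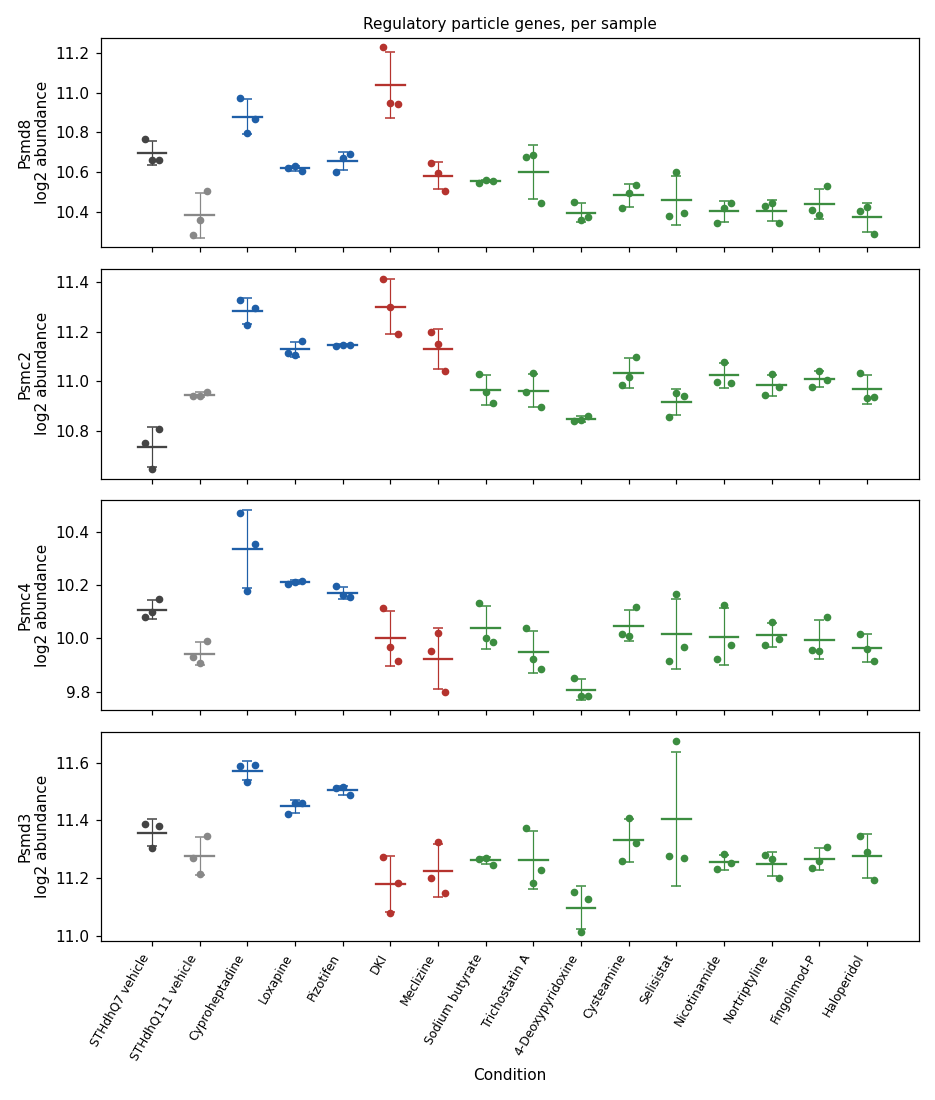
Log2 abundance of Psmd8, Psmc2, Psmc4 and Psmd3 (vertical axes) in each sample (points) of the 16 conditions, with the mean and SD of 3 samples. Psmd8 and Psmc2 are high in Group A (blue) and Group B (red), with DKI highest for Psmd8, whereas Psmc4 and Psmd3 were higher in Group A than in Group B, by 0.28 and 0.31.

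The direct comparison of Group A with Group B uses no vehicle sample. Cyproheptadine shared its day and time slots of collection with DKI, and pizotifen with meclizine. Loxapine shared its slots with neither Group B compound, and the part of the slot in the differences between the groups was not tested. In this comparison, 22 of the 38 genes were higher with Group A and none was lower. Of all genes tested, 19.9% were called higher, 21.4% lower and 41.3% in either direction. All 22 were constitutive genes, and the median difference of the 34 was 0.12. By class, 5 of 7 alpha genes, 3 of 8 beta genes (with Psmb11), 4 of 6 ATPase genes, 9 of 11 non-ATPase genes and 1 of 3 chaperone genes were higher.

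Psmd3, a lid subunit on chr11:98682554-98695979, showed the largest difference. It was at 11.59, 11.53 and 11.59 with cyproheptadine, at 11.42, 11.46 and 11.46 with loxapine and at 11.51, 11.52 and 11.49 with pizotifen. It was at 11.27, 11.08 and 11.19 with DKI and at 11.20, 11.33 and 11.15 with meclizine. All 9 Group A samples lay above all 6 Group B samples, with a difference of 0.31 (SE 0.044, limma adjusted p = 4.2e-07). Psmc4 differed by 0.28, Psmd1, the scaffold that binds ubiquitin receptors, by 0.26, and Psmd12 by 0.21, also without overlap of the groups. The groups hold 3 and 2 compounds, and the p-values measure the spread between samples and not between compounds.

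Psmd8 and Psmc2, which rose with all 5 of these compounds, were not called between the groups, nor was Psmc6, which rose with 4 of them and differed by 0.16 with loxapine, which was not called. Psmd8 differed by -0.09 (95% interval -0.18 to -0.0023, limma adjusted p = 0.092), Psmc2 by -0.03 (95% interval -0.10 to 0.04) and Psmc6 by -0.01 (95% interval -0.09 to 0.07). Psmb8, Psmb9 and Psmb10 were not called either, with differences of 0.10, -0.05 and 0.09 and 95% intervals that reached from -0.26 to 0.29. Without replicate 3 of meclizine or without replicate 3 of DKI, 16 genes were called. In the latter case 15 were higher and 1 was lower with Group A.

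**Figure D4:**
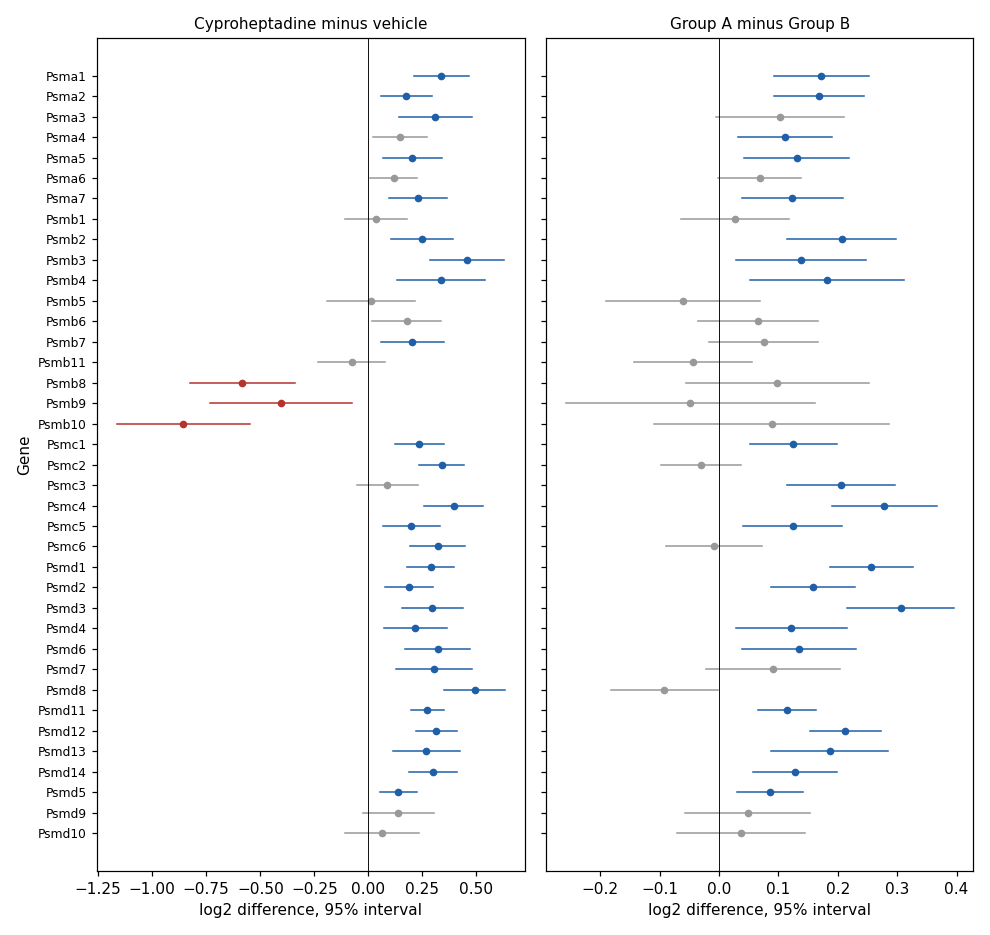
Log2 difference with its 95% interval (horizontal axis) for each of the 38 genes (rows), for cyproheptadine against vehicle (left) and Group A against Group B (right), with called genes in blue (higher) or red (lower) and others in grey. On the left all constitutive genes lie right of 0 and Psmb8, Psmb9 and Psmb10 lie left of it, whereas on the right these 3 genes and Psmd8, Psmc2 and Psmc6 are grey.

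DKI and meclizine, both at 10 µM, differed in 2 proteasome genes, both higher with DKI, where 8.11% of all genes tested were called, 4.3% higher and 3.8% lower. Psmd8 was 0.45 higher with DKI (SE 0.069, limma adjusted p = 4.0e-05), and its groups did not overlap. Psmc2 was 0.17 higher (SE 0.051, limma adjusted p = 0.032), with overlapping samples. The Psmc2 call was lost without meclizine replicate 2 or 3 or DKI replicate 1 or 2 (0.11 to 0.18), which left 1 gene called. When only the DKI and meclizine samples entered the fit, neither was called.

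The immunoproteasome genes showed larger changes than the constitutive genes. Psmb8 (chr17:34197721-34201454, plus strand) and Psmb9 (chr17:34181987-34187764, minus strand) lie close to each other in the class II region of the major histocompatibility complex, and Psmb9 overlaps Tap1 on the other strand. Psmb10 lies on chr8:105935735-105938444 on the minus strand. The annotated genes Gm20496 and Gm16156 overlap Psmb8 and Psmb10 on the other strand. The libraries were prepared with a kit that marks the strand, but the sources used here do not say that strand was used in quantification.

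In STHdhQ7 cells all 3 were lower than in STHdhQ111 cells, where 16 of the 38 proteasome genes were called, 4 higher and 12 lower. Of all genes tested, 55.8% were called, 29.2% higher and 26.6% lower. Psmb10 was at 8.34, 7.71 and 7.74 in STHdhQ7 and at 9.43, 9.33 and 9.63 in STHdhQ111. The lowest STHdhQ111 sample lay nearly 1 log2 unit above the highest STHdhQ7 sample, and the difference was -1.53 (SE 0.149, limma adjusted p = 2.6e-11). Psmb8 was at 5.93, 5.72 and 5.80 against 7.21, 6.98 and 7.27, a difference of -1.34 (SE 0.117, limma adjusted p = 1.3e-12). Psmb9 was at 5.29, 5.46 and 5.39 against 6.28, 6.00 and 6.31, a difference of -0.82 (SE 0.159, limma adjusted p = 3.3e-05). The groups were separate for each gene. Ptprc, a leukocyte marker, was 2.73 lower in STHdhQ7 as well, while Aif1 and Cx3cr1 were below 0 in all samples of both lines. The part of other cell types in these differences was not tested.

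**Figure D5:**
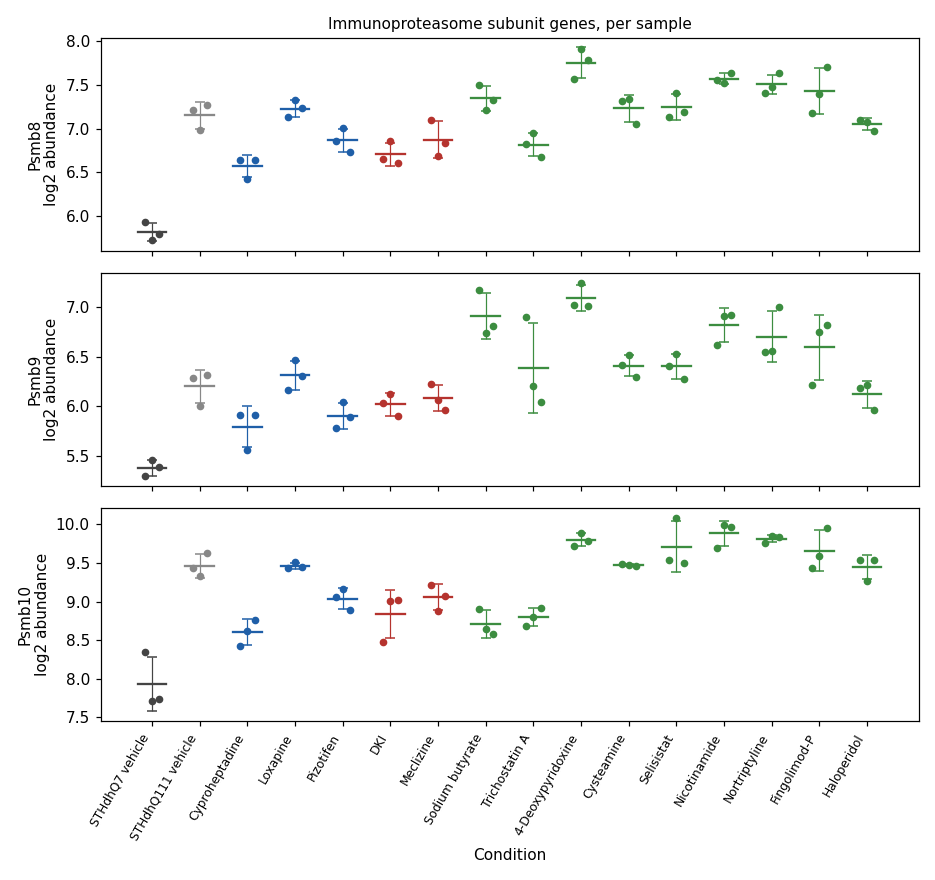
Log2 abundance of Psmb8, Psmb9 and Psmb10 (vertical axes) in each sample (points) of the 16 conditions, with the mean and SD of 3 samples. STHdhQ7 is lowest for all 3 genes, cyproheptadine lies below the STHdhQ111 vehicle for all 3, and with sodium butyrate Psmb9 is above and Psmb10 below the vehicle.

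Cyproheptadine lowered all 3 immunoproteasome genes while it raised the constitutive ones. Psmb10 was at 8.42, 8.62 and 8.77, below every vehicle sample, a decrease to 0.55 of the vehicle level (log2 difference -0.86, SE 0.151, limma adjusted p = 2.4e-05). Psmb8 was at 6.65, 6.43 and 6.64, also below every vehicle sample, with a difference of -0.58 (SE 0.118, limma adjusted p = 1.5e-04). Psmb9 was at 5.91, 5.56 and 5.91, with all samples below the lowest vehicle sample. Its difference of -0.40 (SE 0.161, limma adjusted p = 0.047) was not called when genes of any abundance were tested (adjusted p = 0.077) or without replicate 2 of cyproheptadine (-0.26) or replicate 1 or 3 of the vehicle (-0.36 and -0.33).

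Psmb10 was lower with 6 of the 14 compounds. Besides cyproheptadine these were sodium butyrate (-0.75), trichostatin A (-0.66), DKI (-0.62), pizotifen (-0.42) and meclizine (-0.41). Its samples were 8.91, 8.64 and 8.58 with sodium butyrate, 8.68, 8.80 and 8.92 with trichostatin A, and 8.47, 9.01 and 9.02 with DKI. None of these reached the lowest vehicle sample, at 9.33. With pizotifen it was at 9.06, 9.16 and 8.89 (limma adjusted p = 0.043) and with meclizine at 9.22, 8.88 and 9.07 (limma adjusted p = 0.040). These last calls were lost when vehicle replicate 1 (-0.44 and -0.42) or vehicle replicate 3 (-0.33 and -0.31) was left out, and without any single pizotifen sample (-0.49 to -0.35) or meclizine replicate 2 or 3 (-0.31 and -0.42). Against slot-matched haloperidol, Psmb10 differed by -0.41 with pizotifen and was not called (limma adjusted p = 0.057), and by -0.39 with meclizine (limma adjusted p = 0.048). With loxapine Psmb10 was at 9.44, 9.51 and 9.44, a difference of 0.00 (95% interval -0.30 to 0.31).

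Psmb8 fell with cyproheptadine, DKI (-0.45, SE 0.118, limma adjusted p = 0.0020) and trichostatin A (-0.34). The trichostatin A call, at an adjusted p of 0.049, was lost without replicate 1 or 3 of the vehicle or of trichostatin A (-0.35 to -0.27), and against slot-matched haloperidol (-0.23, limma adjusted p = 0.21). Its DKI samples were 6.65, 6.85 and 6.61, below the vehicle samples. With pizotifen Psmb8 differed by -0.29 and Psmb9 by -0.30, and with meclizine Psmb8 by -0.28, none of them called. Psmb9 differed by -0.18 with DKI and by -0.12 with meclizine, neither of them called.

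Sodium butyrate and trichostatin A, both inhibitors of histone deacetylases, were given at 1 mM and 10 nM. With sodium butyrate 6 proteasome genes were called, 3 higher and 3 lower, where 37.5% of all genes were called, 19.6% higher and 17.8% lower. With trichostatin A 3 were called, 1 higher and 2 lower, where 13.1% of all genes were called, 6.41% higher and 6.68% lower. Under sodium butyrate the immunoproteasome genes diverged. Psmb9 was at 7.17, 6.74 and 6.81, above all vehicle samples (difference 0.71, SE 0.159, limma adjusted p = 5.8e-04), whereas Psmb10 fell. Psmb8 was at 7.50, 7.21 and 7.33, a difference of 0.19 that was not called. With trichostatin A Psmb9 was at 6.90, 6.20 and 6.05, a spread that covered the vehicle samples. Psmd2 and Psmc3 fell by 0.25 and 0.24 with sodium butyrate, and Psmd12 rose by 0.13. Without vehicle replicate 3, 10 genes were called with sodium butyrate, and without vehicle replicate 1 or trichostatin A replicate 1, 1 was called with trichostatin A. The Psmd12 call was lost without vehicle replicate 2 (0.11) or sodium butyrate replicate 1 (0.093). Against the slot-matched low-dose conditions, Psmd2 differed by -0.083 with sodium butyrate and Psmd8 by 0.15, and neither was called (limma adjusted p = 0.18 and 0.053).

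Psmb8 and Psmb9 were called higher than in the vehicle with DOP, a vitamin B6 antagonist, and with nicotinamide. Neither compound shared its collection slots with the vehicle, as described below. With DOP 4 proteasome genes were called, 2 higher and 2 lower, where 20.1% of all genes were called, 8.93% higher and 11.2% lower. With nicotinamide 3 were called, 2 higher and 1 lower, where 10.4% of all genes were called, 2.82% higher and 7.59% lower. Psmb9 was at 7.02, 7.25 and 7.01 with DOP, the highest mean of the 16 conditions, a difference of 0.89 (SE 0.159, limma adjusted p = 1.3e-04). Psmb8 was at 7.56, 7.91 and 7.79, a difference of 0.60 (SE 0.117, limma adjusted p = 3.4e-04). With nicotinamide Psmb9 was at 6.62, 6.91 and 6.92 and Psmb8 at 7.56, 7.52 and 7.64, with differences of 0.62 (limma adjusted p = 0.010) and 0.42 (limma adjusted p = 0.017). All these samples lay above all vehicle samples. Nortriptyline was collected in the same day and time slots as DOP and nicotinamide. With it Psmb9 was at 6.543, 6.558 and 6.997 and Psmb8 at 7.41, 7.47 and 7.63, differences of 0.50 and 0.35 that were not called.

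The collection slot moved with these rises. Nicotinamide and nortriptyline were given at 0.5 nM and 1 nM and shared their slots with DOP, loxapine, cysteamine and sodium butyrate, but not with the vehicle. Against these 2 low-dose conditions, Psmb9 differed by 0.34 with DOP (limma adjusted p = 0.11), Psmb8 by 0.21 (limma adjusted p = 0.18) and Psmb10 by -0.05, none of them called. Psmb9 differed by 0.15 with sodium butyrate (limma adjusted p = 0.45). Psmb10 was 1.14 lower with sodium butyrate, and Psmb8, Psmb9 and Psmb10 were lower with loxapine, by -0.31, -0.45 and -0.38. The part of the slot in the differences from the vehicle was not tested. Leaving out replicate 2 of the vehicle, or replicate 2 or replicate 3 of nicotinamide, left no call with nicotinamide, while 1 gene was called without vehicle replicate 1 and 6 were called without vehicle replicate 3. Where their calls were lost, Psmb8 differed by 0.32 to 0.45 (also without vehicle replicate 1) and Psmb9 by 0.50 to 0.58. Psmd2 fell with DOP (-0.24) and nicotinamide (-0.17), and Psmd1 with DOP (-0.16). The Psmd2 call with nicotinamide was lost without any sample of the comparison other than vehicle replicate 3 (-0.20 to -0.13). The Psmd1 call was lost without vehicle replicate 1 or DOP replicate 1 or 3 (-0.15 to -0.11). Against the slot-matched conditions, Psmd2 and Psmd1 each differed by -0.08 with DOP and were not called. Psmc2 (-0.16) and Psmc4 (-0.20) were called lower with DOP in that comparison, where 10.6% of all genes tested were called. Of the 34 constitutive genes, 31 were negative and 3 positive there, with a median of -0.072.

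The balance of the immunoproteasome against its standard counterparts was computed in each sample as the mean log2 abundance of Psmb8, Psmb9 and Psmb10 minus that of Psmb5, Psmb6 and Psmb7. Gene length does not enter this value, so that it serves to order the conditions and not to compare levels of genes. It was -2.88 ± 0.09 (SD, n = 3) in the STHdhQ111 vehicle and -3.94 ± 0.10 (SD, n = 3) in the STHdhQ7 vehicle. The lowest of the compound means was that with cyproheptadine, at -3.63 ± 0.09 (SD, n = 3). Next were DKI (-3.37 ± 0.20), pizotifen (-3.29 ± 0.07), meclizine (-3.21 ± 0.12) and trichostatin A (-3.19 ± 0.10), which lie within or close to each other's spread (SD, n = 3 each). Cysteamine, haloperidol, sodium butyrate, loxapine and selisistat had means from -2.96 to -2.87, within the spread of the vehicle. Fingolimod phosphate, nicotinamide and nortriptyline followed at -2.65, -2.57 and -2.56. DOP had the highest mean, at -2.33 ± 0.16 (SD, n = 3), and its samples ranged from -2.51 to -2.19. The lowest DOP sample overlapped the highest samples of the 3 preceding conditions.

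Among the constitutive genes STHdhQ7 and STHdhQ111 differed in both directions. In STHdhQ7, 4 were higher and 9 lower, and the median difference was -0.05. Of the 34, 38.2% were called, below the 55.8% of all genes tested (29.2% higher and 26.6% lower). Psma3, an alpha subunit (chr12:70974621-70996347), was at 10.97, 10.79 and 10.73 in STHdhQ7 and at 10.28, 10.30 and 10.38 in STHdhQ111. All STHdhQ7 samples were higher, by 0.51 on average (SE 0.082, limma adjusted p = 1.5e-06). Psmd8, Psmc1 (0.27) and Psmc4 (0.17) were the others that were higher. The Psmc4 call was lost without STHdhQ7 replicate 2 or 3 or STHdhQ111 replicate 1 or 2 (0.15 to 0.17). Psmd7, a lid subunit that pairs with Psmd14, was at 10.20, 10.40 and 10.53 against 10.85, 10.83 and 10.89, a difference of -0.48 (SE 0.086, limma adjusted p = 9.5e-06). Its STHdhQ7 samples varied more than those of STHdhQ111, but the groups were separate. Psmd10 (-0.37), Psma6 (-0.36) and Psmb6 (-0.34) were the next lowest, followed by Psmd11, Psmc2, Psmb2, Psmc5 and Psmd12 at -0.23 to -0.10. Psmb5 and Psmb7 differed by -0.11 and -0.07 and were not called.

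The remaining compounds changed few or no proteasome genes at this replication. With cysteamine Psma2, an alpha subunit, rose by 0.19 (SE 0.058, limma adjusted p = 0.036), the only gene called where 7.83% of all genes were called, 2.33% higher and 5.5% lower. That call was lost without cysteamine replicate 1 or replicate 3 and without vehicle replicate 1 or replicate 2, when the difference was 0.16 to 0.18, and 6 genes were called without vehicle replicate 3. The median of the constitutive genes with cysteamine was 0.11, with 33 of 34 positive. Against the slot-matched low-dose conditions the median with cysteamine was 0.067, with 30 of 34 positive. Loxapine had 0.073 and 26 against the same conditions. No proteasome gene was called with limma for selisistat, nortriptyline, fingolimod phosphate or haloperidol, where 0.515%, 3.83%, 0.0597% and 0% of all genes were called. With nortriptyline 0.746% were higher and 3.08% lower, and with selisistat 0.358% and 0.157%. At an unadjusted p under 0.05 there were 4, 4, 4 and 0 of the 38. Without selisistat replicate 1, 2 genes were called with selisistat, and 4 without its replicate 3. With haloperidol all 38 differences lay between -0.10 and 0.064.

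Genes that act with the proteasome were examined by lists. Psme1 and Psme2, the interferon-inducible activator that docks on the core in place of the regulatory particle, were lower in STHdhQ7 (-0.79 and -1.10) and fell with cyproheptadine (-0.54 and -0.47), DKI (-0.36 and -0.39) and meclizine (-0.23 and -0.30). Psme1 rose with DOP (0.36) and nicotinamide (0.28). Both compounds were collected in other slots than the vehicle, and the part of the slot was not tested. Psme3, the nuclear activator, rose with DKI (0.33), meclizine (0.20) and cyproheptadine (0.14). Of the 5 activators and inhibitors, 3 were called with cyproheptadine, 1 higher and 2 lower, and 4 with DKI, 1 higher and 3 lower. Of all genes tested, 35.6% were called with cyproheptadine (17.5% higher and 18.2% lower) and 42.3% with DKI (20.4% higher and 21.9% lower).

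Over all genes tested, 17.5% were called higher and 18.2% lower with cyproheptadine, and 20.4% and 21.9% with DKI. Of the 7 transcription and processing factors, 1 rose and 3 fell with cyproheptadine, and 1 rose and 4 fell with DKI. The riser was Nfe2l1, the factor that induces proteasome genes, which rose with cyproheptadine (0.32), DKI (0.36), meclizine (0.30) and pizotifen (0.20). It differed by 0.12 with loxapine, which was not called, and was lower with sodium butyrate (-0.18) and DOP (-0.16). Irf1, an interferon-induced factor, fell with cyproheptadine (-0.50) and DKI (-0.42), as did Nlrc5 (-0.48 and -0.37), the regulator of class I genes. In STHdhQ7 both were lower, with differences of -0.89 and -1.31. Of the 6 genes of class I antigen processing, all were lower in STHdhQ7, where 26.6% of all genes tested were called lower. With cyproheptadine 3 of the 6 fell, among them the peptide transporter genes Tap1 (-0.42) and Tap2 (-0.46). With DOP 4 of the 6 rose, Tap1 by 0.64, where 8.93% of all genes tested were called higher. DOP was collected in other slots than the vehicle, and the part of the slot in these rises was not tested.

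Of the 5 chaperones that assemble the core, 4 rose with DKI and 3 with meclizine. Over all genes tested, 20.4% were called higher with DKI and 13.1% with meclizine. The chaperones that rose with both were Psmg1, Psmg2 and Psmg4. They rose by 0.30, 0.32 and 0.40 with DKI and by 0.30, 0.19 and 0.37 with meclizine, and Psmg3 rose by 0.43 with DKI. None was called with cyproheptadine, loxapine or pizotifen, and Psmg1, Psmg2 and Psmg4 were lower in Group A than in Group B, by -0.26, -0.16 and -0.25, while Pomp was 0.16 higher. Of the 6 other proteins of the particle, 3 rose and 1 fell with cyproheptadine and with loxapine, and 4 rose with pizotifen. Of all genes tested, 17.5%, 10.1% and 8.86% were called higher with these compounds, and 18.2%, 11.8% and 9.07% lower. The gene that fell was AI314180, by 0.20 and 0.14. Adrm1, a ubiquitin receptor, rose by 0.31, 0.21 and 0.21 with these compounds, and the deubiquitinases Uchl5 and Usp14 rose with each as well, Uchl5 by 0.36, 0.26 and 0.24. Of the 9 shuttle and segregase genes, 4 rose with cyproheptadine and 5 with DKI, where 17.5% and 20.4% of all genes were called higher. Sqstm1, the autophagy receptor for ubiquitinated cargo, rose by 1.16 with DKI, by 0.91 with meclizine and by 0.45 with cyproheptadine, and Vcp, the segregase, rose with cyproheptadine (0.22) and fell with DKI (-0.19). Of the 4 ubiquitin genes, none rose with cyproheptadine and 1 fell, Uba1 (-0.13), the activating enzyme.

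Most constitutive genes varied in the same direction over the conditions. Many of them, Psmc4 and Psma7 included, were highest with cyproheptadine, so that 1 condition enters much of this likeness. No such values were computed for pairs of other genes. Over the means of the 15 STHdhQ111 conditions, the median Pearson's r between pairs of the 34 genes was 0.56, and 495 of the 561 pairs were positive. It was 0.58 within the core and 0.66 within the regulatory particle. Psmb8, Psmb9 and Psmb10 had a median r of 0.81 with each other and of -0.32 with the constitutive genes. Psmc4 and Psma7 followed the other constitutive genes most closely, with r of 0.93 for each, while Psmb5, Psmd10 and Psmb1 did not, with r of -0.02, -0.01 and -0.22. Because these means share the normalization and the removal of the collection day, the values are descriptive. Psmd8 had the widest range of the constitutive genes over these conditions, 0.66 in log2, and Psma6 a narrow one, 0.16.

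Outside the members, the genes whose abundance over the 45 STHdhQ111 samples was most like the mean of the proteasome genes other than Psmb8, Psmb9 and Psmb10, after removal of the collection day, were sought among 13371 genes. The nearest was the row of Bud31, a splicing factor, with Pearson's r of 0.92. Grpel1, Ppa1, Smu1, Tceal8, Manf, Rheb, Tmem208, Selk and Nsfl1c followed, with r from 0.825 to 0.835. These samples share conditions and collection days, so the correlations are descriptions.

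Psmb11, the beta subunit of cortical thymic epithelium, was the member nearest the threshold of the rule, with a log2 abundance of 2.73, 2.51 and 2.58 in the vehicle. Its differences ranged from -0.08 to 0.11 over the compounds, and it was called in no comparison. All other members were well above the threshold, and none of the rows matching the name lay below it.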

How the data were processed

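RNA-Seq libraries of 48 samples were analysed, 3 in each of 16 conditions grouped by the labels. The authors deposited 1 table of log2 values per gene, whose transformation is not named. The submitters' processing notes name Trimmomatic 0.36, RSEM, DESeq2 and the GRCm38.p5 build. No counts were given, so the depth per sample is unknown and the study's count model was not repeated.

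Genes with a symbol and a mean of at least 1 were tested (13409). limma 3.58.1 in R 4.3.3 was fitted to all samples with condition and collection day as terms, a trend on abundance and 30 residual degrees of freedom. P-values were two-sided and adjusted by Benjamini-Hochberg over all genes tested, and a gene was called at an adjusted p under 0.05. Exact permutation tests of single genes, which cannot go below 0.1 with 3 samples against 3, were run beside it and are not printed.

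In each comparison the text names up to 4 called members with the largest rise and 4 with the largest fall that kept their direction in every sample, and always the immunoproteasome genes and their standard counterparts. Other genes come from lists of the pathway. The remaining called members were listed after their values were seen. The members and lists were chosen with earlier results of these data known. On simulated data for the meclizine comparison with all 13409 genes, 67 of 100 changes of 0.3 and 97 of 100 of 0.6 were recovered, with 8 false calls.

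Alternatives were the abundance minimum, genes without a symbol, scaling, the trend, collection day and time terms, a replicate block, the samples in the fit, slot-matched references and leaving out each sample. Gene positions are from GENCODE M21 on GRCm38.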

Additional observations from a re-analysis of the deposited data

Results flagged for a closer look

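Proteasome genes differed between the compound groups by a direct test. Between Group A and Group B, 22 of the 38 genes were called, all higher with Group A (limma). Of all genes tested, 41.3% were called in this comparison, 19.9% higher and 21.4% lower. The p-values measure the spread between samples and not between compounds. Psmd3 differed by 0.31, Psmc4 by 0.28, Psmd1 by 0.26 and Psmd12 by 0.21 on the log2 scale, each higher in 9 of 9 Group A samples than the mean of Group B. Within Group B, 2 genes were called between DKI and meclizine, Psmd8 (0.45) and Psmc2 (0.17). There 8.11% of all genes tested were called, 4.3% higher and 3.8% lower.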

How the results depend on the processing

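No called difference of a named gene changed direction under the alternatives run. Differences that were not called did: with loxapine, Psmb8, Psmb9 and Psmb10 were at 0.08, 0.11 and 0.004 against the vehicle and at -0.31, -0.45 and -0.38, each called lower, against the slot-matched low-dose references, and Psmb10 with DOP was at 0.34 and -0.05. The number of proteasome genes called moved by more than 1.5 times in the following cases. When the fit held no other conditions than those compared, 1 gene was called with trichostatin A, 5 with DKI, 6 with nicotinamide, 2 with nortriptyline, 1 with fingolimod phosphate, 7 with cysteamine and 0 between DKI and meclizine. Without the collection day term 5 were called with nicotinamide. Against the slot-matched low-dose references, 2 were called with DOP and 0 with cysteamine. The 2 with DOP were Psmc2 and Psmc4, both lower, and neither was called against the vehicle. The cause was not tested. When each sample was left out in turn, the counts ranged from 13 to 16 for STHdhQ7, 2 to 4 for meclizine, 4 to 10 for sodium butyrate, 21 to 31 for cyproheptadine, 6 to 12 for loxapine, 3 to 6 for DOP, 0 to 4 for selisistat, 1 to 2 for trichostatin A, 6 to 9 for DKI, 0 to 6 for nicotinamide, 7 to 13 for pizotifen, 0 to 6 for cysteamine, 16 to 24 between Group A and Group B and 1 to 2 between DKI and meclizine, and were 0 for nortriptyline, fingolimod phosphate and haloperidol.

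Samples sharing a replicate number did not deviate together, with a correlation over 0.1 in 9 of 120 pairs of conditions and a mean of -0.049. With the replicate number as a block, 30 genes were called with cyproheptadine against 29, and the other counts did not change. Of the single-gene results, 531 kept their call and 45 lost it under the alternatives that kept all samples, and 318 kept it and 84 lost it when a sample was left out. Rescaling moved the samples by -0.013 to 0.0027. Without counts, the contribution of sequencing depth to the spread is unknown.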
